A study of Homo sapiens with 6 samples.

Results

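The proteasome is the protease that degrades ubiquitin-tagged proteins, and 43 of the 18268 rows of the expression table belonged to its gene family by name. They were chosen as the rows with 1 gene name that begins with PSM, a letter from A to G and a digit. Of these, 42 encode proteasome subunits, activators or assembly chaperones: 15 of the 20S core (PSMA and PSMB), 19 of the 19S cap (PSMC and PSMD), 4 activators (PSME) and 4 assembly factors (PSMG). The remaining row, PSMC3IP, encodes a protein of meiotic recombination that matches the pattern by name alone and was kept apart. Classes follow the gene names, so the cap rows include PSMD5 and PSMD10, which are assembly chaperones of its base. A further 6 rows join a proteasome gene with a neighbouring gene and are reported under their joined names.

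The rows come from RNA sequencing of MIA PaCa-2 cells, an established human pancreatic carcinoma line. Both groups were grown in the same serum-containing medium. One group carried the pCDH vector as control (n = 3) and the other overexpressed the long noncoding RNA LINC00901 (n = 3). The labels do not say whether libraries came from separate cultures or from single clones, so the p-values rest on the spread among these 6 libraries alone, which may be technical.

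Values are FPKM, fragments normalized for gene length and library size, so levels of different genes are compared per length. FPKM summed to between 87162 and 88738 in the vector libraries and to between 127768 and 128538 in the overexpression libraries. The sequencing depth is unknown. No row names LINC00901, so the overexpression itself was not checked. The labels call the cells epithelial. Of the epithelial markers, KRT19 rose from a mean of 3.71 to 24.0 FPKM, KRT18 (105.38, 90.93 and 103.99 against 62.48, 62.96 and 86.92) and KRT8;KRT78 (24.6 against 15.6) fell, and CDH1 and EPCAM stayed at or below 0.08 and 0.14 FPKM. Of the fibroblast markers, COL1A1 rose from 0.583 to 1.67 FPKM and COL1A2 fell from 18.1 to 13.1, COL3A1 stood at 161.90 to 185.05 and did not pass the test, and DCN and LUM stood at 0.68 FPKM or less. Summed over 6 epithelial rows, FPKM ran from 122.14 to 136.41 with the vector and from 100.32 to 128.94 with overexpression, and over 5 fibroblast rows from 189.13 to 204.4 and from 173.89 to 198.46. The leukocyte markers PTPRC and CD3E were listed at 0 in every library. The part of any other cell type in the results was not tested, and in bulk RNA fewer cells of a type and less RNA per cell cannot be told apart.

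In the working enzyme, rings of alpha subunits gate a chamber lined by rings of beta subunits, 3 of which carry the peptidase sites. The cap recognises ubiquitin chains, removes them and unfolds the substrate with a ring of ATPases. Cells that lack proteasome activity are known to raise the subunit genes together through the transcription factor NFE2L1, and interferon is known to exchange the catalytic beta subunits for inducible ones. Cancer cells with high protein synthesis are known to depend on the enzyme.

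On the deposited scale most proteasome genes had higher values with overexpression, but the share of them called higher came close to that of all genes once the libraries' level distributions were made alike. Of 41 members with a mean of at least 1 FPKM, 27 rose, 2 fell and 12 did not pass the test (limma, adjusted p under 0.05 over all 9694 tested rows). Of all tested rows, 37.4% rose and 11.9% fell. The members' median log2 difference was 0.58, against 0.27 for all tested genes. Every overexpression library lay above every vector library for 32 of the 41, where 44.9% of all tested rows did so, and below for 2, where 15.6% did. With quantile normalization 9 members were higher and 8 lower (19.2% and 20.9% of all tested rows). With every library scaled to the same FPKM sum, an alternative chosen after seeing the data, 9 were higher and 8 lower as well (11.9% and 34.5% of all). Median centring gave 20 and 4 (24.0% and 19.2% of all), removal of length and GC content trends 15 and 4 (23.3% and 17.6%), and removal of the level trend 9 and 8 (19.7% and 21.3%). Because the median gene differed by 0.27 log2, a change relative to the median gene is given beside the leading log2 differences below.

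**Figure D1:**
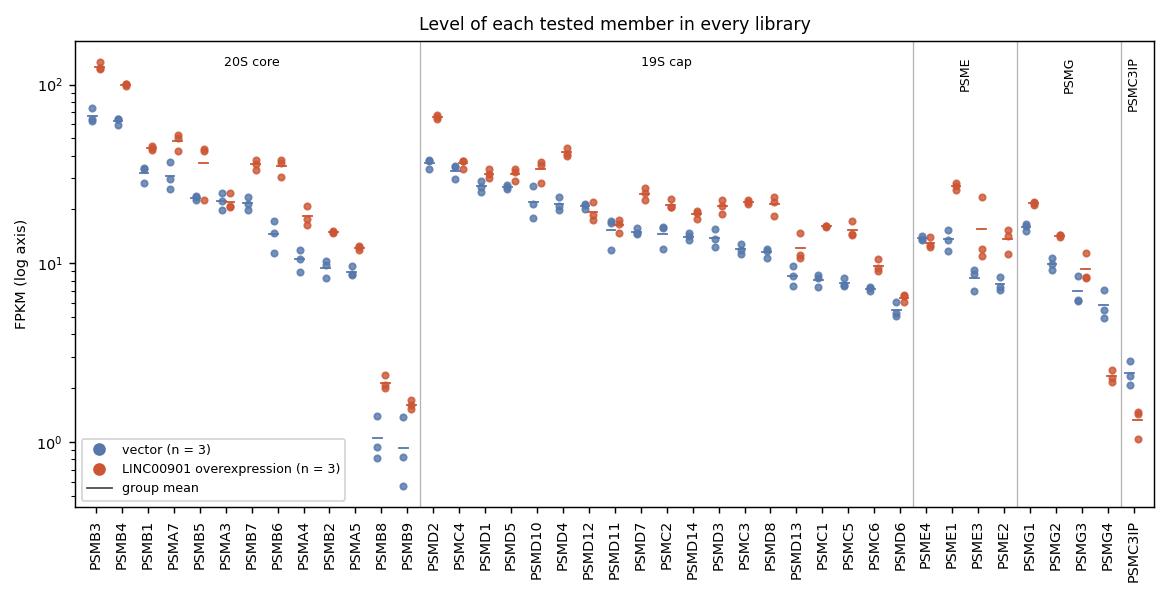
FPKM on a log axis for the 41 tested members in each library, vector in blue and overexpression in red, with short lines at group means; genes are grouped by class and ordered by their vector mean. PSMB3 and PSMB4 are the highest rows and PSMB8 and PSMB9 the lowest of the core, while PSMG4 and PSMC3IP are the rows whose overexpression points all lie below the vector points.

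As a share of all FPKM, the 43 rows took 0.801%, 0.809% and 0.818% of the vector sums and 0.855%, 0.810% and 0.860% of the overexpression sums. Those shares lay close together in every library, although the summed FPKM differed by 1.52 times. Core rows took 0.347% ± 0.01 of the vector sum and 0.387% ± 0.00845 of the overexpression sum (SD, n = 3), with no overlap between the groups. Cap rows, which include the chaperones PSMD5 and PSMD10, took 0.366% ± 0.00254 and 0.362% ± 0.0133 (SD, n = 3). Assembly factors (PSMG) took 0.0441% ± 0.00432 and 0.0371% ± 0.0016 (SD, n = 3). The assembly factor shares did not overlap either, and they were lower with overexpression. How often the shares of other gene sets do not overlap was not counted. These shares are a description, and the difference between classes was not tested.

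The members had higher levels and shorter transcripts than the typical tested gene. Their median level was 17 FPKM, against 4.99 over all tested rows, and their median transcript length was 1562 bases against 3056 (known for 8830 rows). Genes of high level and short genes were shifted upward in general: the median log2 difference was 0.54 in the highest quintile of tested rows by level and 0.08 in the lowest, and 0.57 in the shortest quintile and 0.07 in the longest. The highest quintile by level held 31 of the 41 members, and those 31 had a median difference of 0.64. With trends on length, GC content and level removed, 4 members were higher and 7 lower, against 18.3% and 18.3% of all 8830 rows in that fit.

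**Figure D2:**
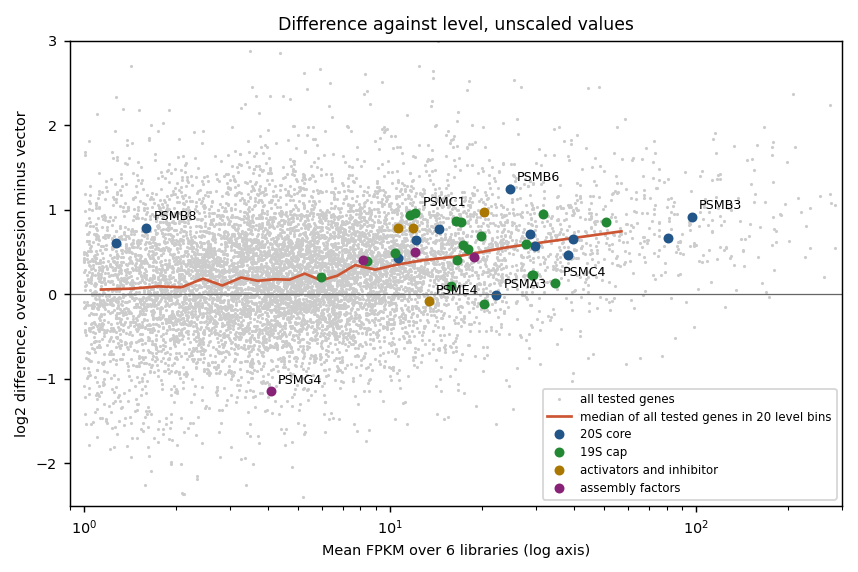
The log2 difference, overexpression minus vector on unscaled values, against the mean FPKM on a log axis; grey points are all tested genes, coloured points the proteasome classes, and the line joins medians of all tested genes in 20 bins of level. The line rises with level and most proteasome genes lie near it, with PSMG4 far below; a few grey points beyond the axes are not shown.

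**Figure D3:**
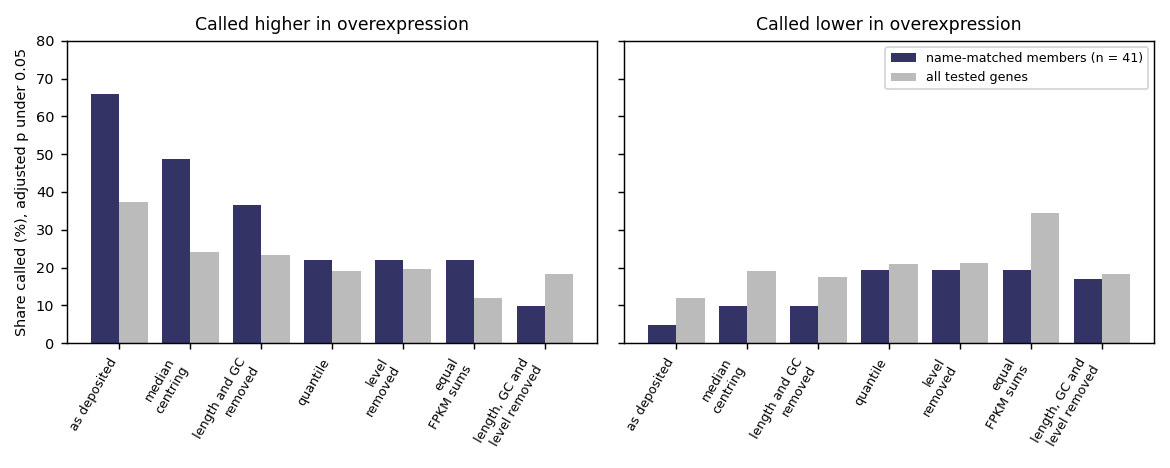
Share of rows called higher (left) and lower (right) in overexpression, in percent, for the 41 members (dark, PSMC3IP included) and all tested genes (grey) under 7 scalings. The members' share called higher falls from 65.9% on deposited values to 9.76% with length, GC content and level removed.

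Across the 7 scalings, 4 members were called in the same direction every time. PSMC1 and PSMC5, ATPases of the cap, were higher in each, and PSMG4 and PSMC3IP were lower in each. The others lost their call or changed direction in at least 1 scaling, or were not called on the deposited scale. How many of all tested rows kept 1 call under all 7 scalings was not counted. These 4 are therefore not shown to exceed the general share.

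Promoter sequence was described for the members with a RefSeq window, 250 bases before to 50 after the start in GRCh38.p14. Windows were found for 37 of the 43 members, 45 in all. The letters TGANNNNGC are a loose form of the core of the antioxidant response element, to which NFE2L1 and its relatives bind. These letters occurred on either strand in 64.4% of the members' windows and in 41.8% of all 35116 windows. CCAAT occurred in 46.7% and 34.6%. TGACNNNGC, a stricter form chosen after the first count and overlapping it, occurred in 31.1% and 13.3%. A match is a description of letters, not of binding. The 250 bases before the start are shown 5′ to 3′ on the gene's strand for members that rose (PSMB3, PSMD3, PSME1 and PSME2) and for PSMG4, which fell, with TGANNNNGC in capitals.
PSMB3 (chr17:38752491-38752740, plus strand): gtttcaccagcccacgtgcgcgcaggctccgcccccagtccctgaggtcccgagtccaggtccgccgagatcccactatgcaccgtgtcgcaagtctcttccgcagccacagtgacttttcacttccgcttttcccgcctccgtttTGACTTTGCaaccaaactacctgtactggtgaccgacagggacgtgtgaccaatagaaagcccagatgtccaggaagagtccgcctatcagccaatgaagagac
PSMD3 (chr17:39980557-39980806, plus strand): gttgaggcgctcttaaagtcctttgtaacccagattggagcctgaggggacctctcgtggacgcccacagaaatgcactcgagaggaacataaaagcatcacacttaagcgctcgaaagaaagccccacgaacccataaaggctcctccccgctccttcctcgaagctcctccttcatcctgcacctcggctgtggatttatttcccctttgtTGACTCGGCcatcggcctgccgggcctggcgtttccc
PSME1 (chr14:24135944-24136193, plus strand): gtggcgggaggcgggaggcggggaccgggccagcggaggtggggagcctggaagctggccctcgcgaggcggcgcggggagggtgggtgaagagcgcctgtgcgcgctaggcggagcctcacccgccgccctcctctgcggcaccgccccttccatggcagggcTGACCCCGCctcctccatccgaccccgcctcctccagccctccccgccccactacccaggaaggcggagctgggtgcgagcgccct
PSME2 (chr14:24146611-24146860, minus strand): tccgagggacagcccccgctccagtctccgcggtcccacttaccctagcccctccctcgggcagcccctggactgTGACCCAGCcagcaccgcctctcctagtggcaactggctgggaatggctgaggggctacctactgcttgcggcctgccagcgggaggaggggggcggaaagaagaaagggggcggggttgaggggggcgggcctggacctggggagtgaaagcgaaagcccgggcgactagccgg
PSMG4 (chr6:3258697-3258946, plus strand): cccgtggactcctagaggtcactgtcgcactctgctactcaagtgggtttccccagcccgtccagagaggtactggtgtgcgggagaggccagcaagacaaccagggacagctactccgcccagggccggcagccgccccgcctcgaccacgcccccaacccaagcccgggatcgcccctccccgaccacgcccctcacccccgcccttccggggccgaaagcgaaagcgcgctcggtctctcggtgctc
The first 4 each hold 1 match, starting 104, 37, 86 and 175 bases before the gene start. Each of these matches also has the stricter form TGACNNNGC, which occurred in only 31.1% of the members' windows. PSMG4 holds no match to TGANNNNGC. PSMC1 and PSMC5, higher under all scalings, differ in this respect: the PSMC1 window before the start has none, and 1 of the PSMC5 windows has 1. The printed set does not stand for the whole list: of 22 genes called higher with a window, 14 had a match before the start and 8 had none (PSMB2, PSMC1, PSMC2, PSMC6, PSMD2, PSMD7, PSMD10 and PSMD13), and of 11 not called, 7 had one, among them PSMA3, PSMC4 and PSME4.

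Among the alpha subunits of the core, which form the gate of the chamber, 3 of 4 tested genes rose on the deposited scale and none did with quantile normalization or equal sums. PSMA4 showed the largest difference of them, with 11.92, 8.96 and 10.62 FPKM in the vector libraries and 20.84, 16.27 and 17.70 in the overexpression libraries. The groups did not overlap, and the log2 difference was 0.77 ± 0.14 (SE), or 0.51 relative to the median gene (adjusted p = 0.00406). PSMA5 rose from 8.96 ± 0.585 to 12.2 ± 0.27 FPKM and PSMA7 from 30.9 ± 5.49 to 48.2 ± 4.97 (SD, n = 3). PSMA3, of the same ring, did not pass the test. It stood at 24.63, 22.32 and 19.97 FPKM with the vector and 24.86, 20.67 and 20.87 with overexpression, so the groups overlapped. Its log2 difference of -0.01 (95% interval -0.28 to 0.26, adjusted p = 0.944) became -0.55 with equal sums and -0.51 with quantile normalization, where it was called lower. PSMA8, the testis form of an alpha subunit, had a value of 0 in every library.

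The structural beta subunits PSMB1, PSMB2, PSMB3 and PSMB4 all rose on the deposited scale, where 37.4% of all tested rows did. PSMB1 and PSMB4 had negative differences with quantile normalization, not called (-0.14 and -0.10, adjusted p = 0.262 and 0.249). With length, GC content and level removed both were called lower (-0.31 and -0.24, adjusted p = 0.0337 and 0.0223). PSMB3, whose promoter is printed above, was the highest member in both groups, at 64.31, 62.70 and 73.47 FPKM against 121.70, 123.58 and 133.78. Its overexpression values were all above its vector values, by a ratio of means of 1.89 and a log2 difference of 0.92 ± 0.08 (SE), 0.65 relative to the median gene (adjusted p = 0.00031). PSMB3 was not called with quantile normalization (0.16, adjusted p = 0.149) or with the level trend removed (0.13, adjusted p = 0.21). With length, GC content and level removed its difference was -0.07 (adjusted p = 0.443). It stayed called with median centring, equal sums, and length and GC content removed. PSMB4 followed at 62.4 ± 2.68 against 99.7 ± 1.6 FPKM, and PSMB1 had the smallest difference, from 31.9 ± 3.33 to 44.2 ± 0.973 (SD, n = 3). PSMB2, which sits in the same ring, stood at 9.47 ± 1.07 FPKM against 15 ± 0.255 (SD, n = 3).

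Of the 3 constitutive catalytic subunits, PSMB6 and PSMB7 rose, and PSMB5 did not pass the test. PSMB6 carries the caspase-like site and showed the largest difference of all members. It read 14.85, 11.36 and 17.18 FPKM with the vector and 36.42, 30.21 and 37.87 with overexpression. The lowest overexpression value was above the highest vector value, the ratio of means was 2.41, and the log2 difference was 1.25 ± 0.16 (SE), 0.99 relative to the median gene (adjusted p = 0.00117). It kept a difference of 0.72 with equal sums (adjusted p = 0.0108) and 0.42 with length, GC content and level removed (adjusted p = 0.0768). PSMB7, of the trypsin-like site, went from 21.6 ± 1.90 to 35.7 ± 2.22 FPKM (SD, n = 3), a log2 difference of 0.71.

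PSMB5, the chymotrypsin-like subunit and the main target of proteasome inhibitor drugs, depended on 1 library. The vector libraries stood at 22.60, 23.40 and 23.71 FPKM, and the overexpression libraries at 42.23, 43.63 and 22.65. Overexpression replicate 3 thus lay within the vector range, while replicates 1 and 2 were above it. The log2 difference was 0.57 (95% interval -0.00 to 1.14, adjusted p = 0.0892), and 0.87 without that library (adjusted p = 0.00194). PSMB6 and PSMB7 showed no such drop in the same library, at 37.87 and 35.96 FPKM.

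The inducible subunits were listed at low levels in all libraries. PSMB8, which takes the place of PSMB5 after interferon, stood at 0.94, 0.81 and 1.39 FPKM with the vector and 2.09, 2.01 and 2.36 with overexpression. Its groups did not overlap, with a log2 difference of 0.79 ± 0.17 (SE), 0.53 relative to the median gene (adjusted p = 0.00909). The PSMB8 call was lost with equal sums (0.39, adjusted p = 0.111) and with length and GC content removed (0.26, adjusted p = 0.244). It was also lost with length, GC content and level removed (0.49, adjusted p = 0.0564). The call stayed with median centring, quantile normalization and the level trend removed (adjusted p = 0.029, 0.0182 and 0.0148). PSMB9, the counterpart of PSMB6, read 0.83, 1.38 and 0.57 FPKM against 1.53, 1.72 and 1.62, and missed the threshold with an adjusted p of 0.0545. Without vector replicate 2 the difference of PSMB9 was 0.83 (adjusted p = 0.0104). The vector mean of PSMB9 was 0.927 FPKM, so the row passed the filter of 1 FPKM only through its overexpression values. The exons of PSMB8 and PSMB9 overlap on opposite strands in GENCODE 29, so without known strand their reads cannot be fully told apart. PSMB11, the thymus form, read 0.26 FPKM in vector replicate 3 and at 0 elsewhere.

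Relative to the constitutive subunit it replaces, PSMB8 stood at a ratio of 0.0449 ± 0.0124 to PSMB5 in the vector libraries and 0.0666 ± 0.0326 in the overexpression libraries (SD, n = 3). The overexpression ratios were 0.0495, 0.0461 and 0.104. The last is from replicate 3, where PSMB5 stood at 22.65 FPKM, and the others lay within the vector range of 0.0346 to 0.0586. An exact two-sided permutation test gave p = 0.4 (0.625 adjusted over 5 ratios). PSMB9 stood at 0.0702 ± 0.0459 and 0.0472 ± 0.0084 of PSMB6 (SD, n = 3; exact permutation p = 0.7, adjusted 0.7). With 3 libraries a group, 0.1 is the smallest p this test allows. The test therefore could not have passed a threshold of 0.05, and it does not decide whether the ratio of inducible to constitutive RNA differed. Both inducible genes remained a small fraction of their counterparts.

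**Figure D4:**
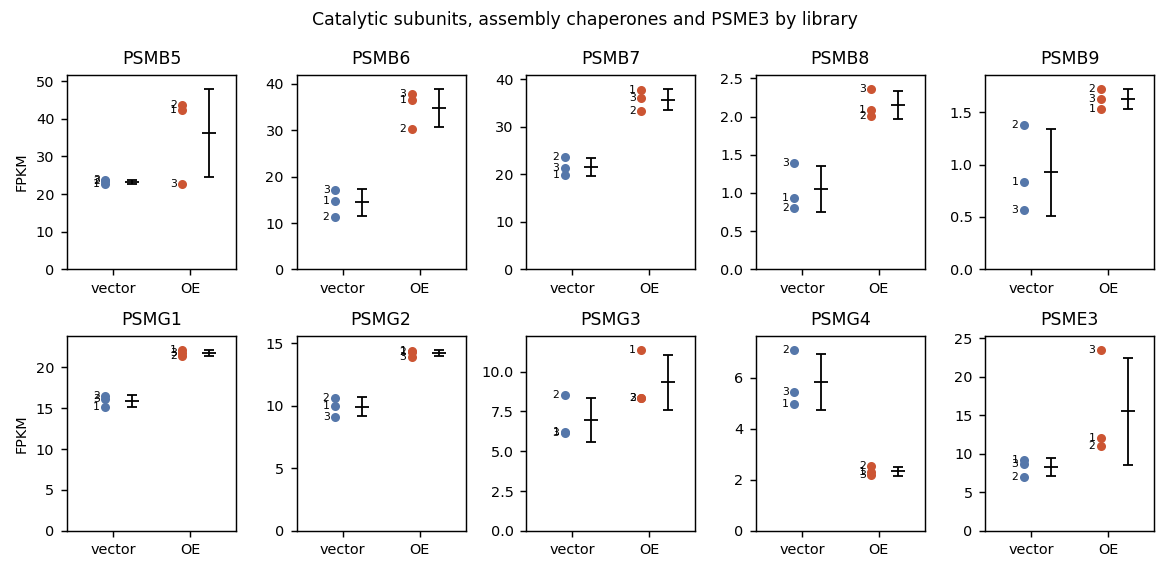
FPKM of 10 members on linear axes from 0, with each library as a point labelled by its replicate number and the group mean ± SD (n = 3) beside it; OE is LINC00901 overexpression. Overexpression replicate 3 stands apart for PSMB5 (22.65 FPKM) and PSME3 (23.45 FPKM), and PSMG4 is lower in all 3 overexpression libraries.

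In the base of the cap, 5 of 6 ATPases rose on the deposited scale, where 37.4% of all tested rows did. With quantile normalization 3 were higher and 1 lower (19.2% and 20.9% of all tested rows). PSMC1, whose tail is known to open the gate of the core, stood at 8.26, 7.38 and 8.57 FPKM against 16.10, 16.05 and 16.12. The overexpression values were nearly identical to one another and all above the vector values, by a ratio of means of 1.99. The log2 difference was 0.96 ± 0.09 (SE), 0.69 relative to the median gene (adjusted p = 0.00036), and 0.43 with equal sums. PSMC5 went from 7.58, 8.26 and 7.46 FPKM to 17.24, 14.34 and 14.54, again with no overlap, a log2 difference of 0.94 ± 0.10 (SE), 0.67 relative to the median gene (adjusted p = 0.000665). PSMC3 rose from 12.0 ± 0.774 to 22.0 ± 0.499 FPKM, PSMC2 from 14.6 ± 2.23 to 21.3 ± 1.23, and PSMC6 from 7.21 ± 0.194 to 9.65 ± 0.773 (SD, n = 3).

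PSMC4, the highest of the ATPases in both groups, did not pass the test. It stood at 34.86, 29.59 and 34.51 FPKM with the vector and 33.50, 37.49 and 37.56 with overexpression, so the groups overlapped. The log2 difference was 0.13 (95% interval -0.09 to 0.36, adjusted p = 0.275). With equal sums it was -0.41 (adjusted p = 0.0117) and with quantile normalization -0.46 (adjusted p = 0.0127), so the direction for PSMC4 depends on the scaling. As background for the ATPase values, GENCODE 29 names 13 pseudogenes of PSMC1, which can share reads with it. Exons of PSMC1 and PSMC5 also overlap NRDE2 and FTSJ3 on the opposite strand, whose means were 0.973 and 5.62 FPKM with the vector and 0.91 and 6.07 with overexpression.

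The other base subunits are the scaffolds PSMD1 and PSMD2 and the ubiquitin receptor PSMD4. PSMD4 stood at 19.87, 20.96 and 23.51 FPKM against 39.92, 44.30 and 40.98, with no overlap. Its log2 difference was 0.95 ± 0.09 (SE), 0.68 relative to the median gene (adjusted p = 0.000378). PSMD2, the highest row of the cap, went from 37.76, 37.41 and 33.50 FPKM to 63.91, 67.39 and 65.72. Its log2 difference was 0.85 ± 0.07 (SE, adjusted p = 0.000283). The PSMD2 call was lost with quantile normalization (0.19, adjusted p = 0.0829) and with the level trend removed (0.18, adjusted p = 0.119). With length, GC content and level removed neither PSMD2 nor PSMD4 was called (0.17 each, adjusted p = 0.127 and 0.134). PSMD1 stood at 26.9 ± 1.90 against 31.7 ± 1.97 FPKM (SD, n = 3) and missed the threshold (log2 difference 0.23, adjusted p = 0.0638). With equal sums and with quantile normalization PSMD1 was called lower, at -0.31 in each.

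The lid holds the deubiquitinase PSMD14 and 7 further tested subunits. Of these 8, 5 rose on the deposited scale, where 37.4% of all tested rows did. With quantile normalization 1 was higher and 1 lower (19.2% and 20.9% of all tested rows). PSMD8 had the largest difference, from 11.96, 10.72 and 11.73 FPKM to 22.13, 18.43 and 23.62. Its groups did not overlap (log2 difference 0.87 ± 0.11 (SE), 0.60 relative to the median gene, adjusted p = 0.00118). PSMD7, the inactive partner of PSMD14, rose from 15 ± 0.703 to 24.5 ± 1.96 FPKM, PSMD14 from 14.1 ± 0.656 to 18.8 ± 1.07 and PSMD3 from 13.8 ± 1.61 to 20.8 ± 1.86 (SD, n = 3). PSMD13 read 7.42, 8.45 and 9.70 FPKM against 11.06, 10.69 and 14.84, and its call (adjusted p = 0.039) was lost without vector replicate 1 (0.105) or 2 (0.0855) and without overexpression replicate 1 (0.0575) or 3 (0.105).

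PSMD12, PSMD11 and PSMD6 did not pass the test. PSMD12 stood at 21.38, 20.04 and 21.19 FPKM with the vector and 17.53, 18.65 and 22.14 with overexpression. Replicate 3 of the overexpression group was above all vector values and replicates 1 and 2 were below them. The log2 difference was -0.11 (95% interval -0.35 to 0.14, adjusted p = 0.426), and -0.64 with equal sums (adjusted p = 0.0032). PSMD11, a lid subunit known to limit how many capped particles form, stood at 15.3 ± 2.96 against 16.3 ± 1.42 FPKM, and PSMD6, the lowest row of the cap, at 5.49 ± 0.523 against 6.43 ± 0.293 (SD, n = 3).

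PSMD5 and PSMD10 are chaperones that hold ATPases during assembly of the base and leave the finished enzyme. PSMD10, also known as the oncoprotein gankyrin, stood at 17.94, 27.03 and 21.39 FPKM against 36.81, 28.28 and 35.30. The groups were separated by a narrow gap between vector replicate 2 and overexpression replicate 2. The log2 difference was 0.60 ± 0.17 (SE), 0.33 relative to the median gene (adjusted p = 0.0243). It no longer passed without vector replicate 1 (adjusted p = 0.0601) or 3 (0.0618) and without overexpression replicate 1 (0.0756) or 3 (0.0734). PSMD5 stood at 26.7 ± 0.810 against 31.5 ± 2.51 FPKM (SD, n = 3; adjusted p = 0.0555), and at 0.0304 without overexpression replicate 2.

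**Figure D5:**
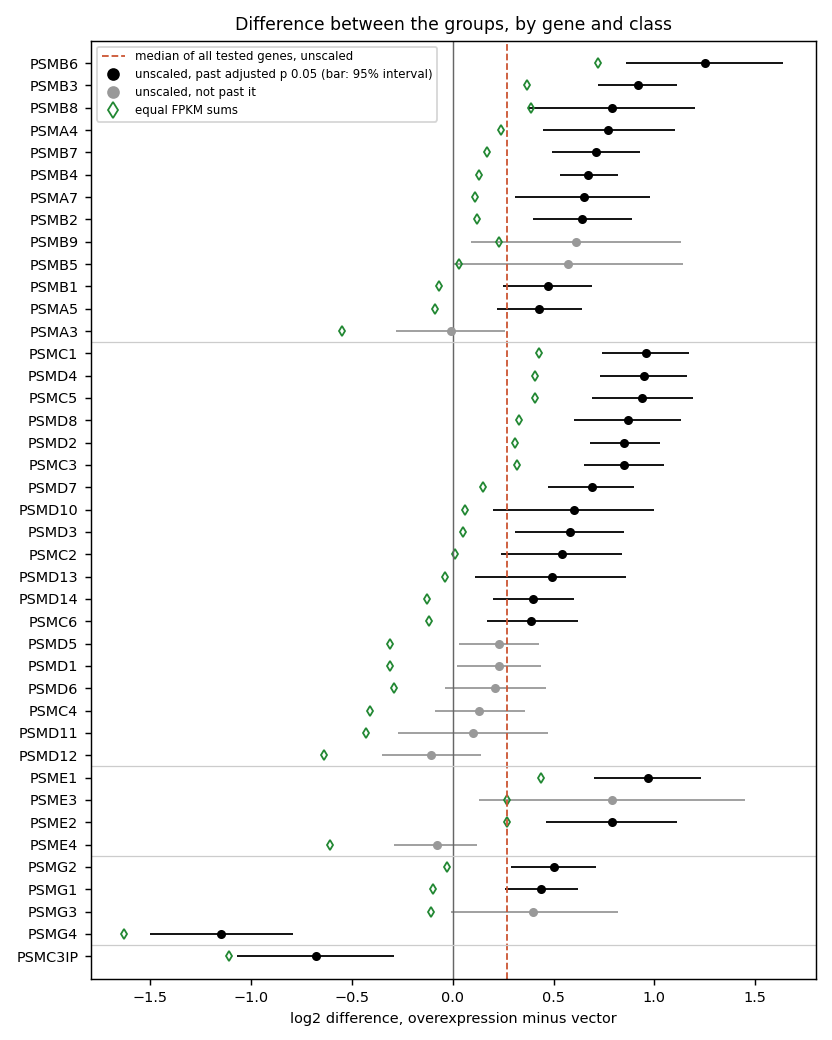
The log2 difference, overexpression minus vector, for the 41 tested members by class, with 95% intervals; black points passed an adjusted p of 0.05, grey points did not, green diamonds are the differences with equal FPKM sums, and the dashed line is the median of all tested genes at 0.27. The diamonds lie to the left of every point, and PSMB6 keeps the largest positive and PSMG4 the largest negative difference.

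Activators open the core without the cap's ATPases. PSME1 and PSME2, which form the PA28 ring induced by interferon, both rose on the deposited scale. PSME2 was not called with equal sums (0.27, adjusted p = 0.156) or with length and GC content removed (0.28, adjusted p = 0.193). With length, GC content and level removed neither PSME1 nor PSME2 was called (0.24 and 0.13, adjusted p = 0.124 and 0.549). PSME1 stood at 11.74, 13.57 and 15.43 FPKM against 27.14, 25.67 and 27.95. All overexpression values were above all vector values, with a log2 difference of 0.97 ± 0.11 (SE), 0.70 relative to the median gene (adjusted p = 0.000757). PSME2 went from 8.43, 7.36 and 7.13 FPKM to 15.42, 11.27 and 14.19 (log2 difference 0.79 ± 0.14 (SE), adjusted p = 0.00366). The ratio of PSME1 to PSME2 was 1.8 ± 0.388 in the vector and 2.0 ± 0.26 in the overexpression libraries (SD, n = 3; exact permutation p = 0.5, adjusted 0.625).

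PSME3, the nuclear activator, stood at 9.15, 6.98 and 8.73 FPKM with the vector and 12.00, 10.99 and 23.45 with overexpression. All 3 overexpression values were above the vector range, but replicate 3 was far above replicates 1 and 2. The log2 difference was 0.79 (95% interval 0.13 to 1.45, adjusted p = 0.0526). It was 0.46 without overexpression replicate 3 (adjusted p = 0.0569) and 0.99 without replicate 2 (adjusted p = 0.0394). PSME4, the large activator of nuclei and testis, stood at 13.43, 13.71 and 14.19 FPKM against 14.01, 12.60 and 12.36. Its groups overlapped (log2 difference -0.08, 95% interval -0.29 to 0.12, adjusted p = 0.452), and with equal sums it was called lower at -0.61 (adjusted p = 0.00168). The inhibitor PSMF1 appears only in the joined row PSMF1;C20orf202, at 3.87 ± 0.907 against 5.72 ± 0.873 FPKM (SD, n = 3; adjusted p = 0.0559).

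Assembly factors of the core act as 2 heterodimers, PSMG1 with PSMG2 and PSMG3 with PSMG4, that guide the alpha ring. PSMG1 rose from 15.09, 16.48 and 16.17 FPKM to 22.08, 21.32 and 21.71, and PSMG2 from 9.97, 10.66 and 9.13 to 14.37, 14.34 and 13.94. Neither pair of groups overlapped, and the log2 differences were 0.44 and 0.50 (adjusted p = 0.00372 and 0.00413). With equal sums those differences were -0.10 and -0.03, so their direction depends on the scaling. Their ratio to each other was 1.61 ± 0.14 and 1.53 ± 0.0363 (SD, n = 3; exact permutation p = 0.5, adjusted 0.625).

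PSMG4 fell, while its partner PSMG3 did not pass the test. PSMG4 stood at 4.96, 7.08 and 5.45 FPKM with the vector and 2.29, 2.53 and 2.18 with overexpression. Every overexpression value was below every vector value, the ratio of means was 0.40, and the log2 difference was -1.15 ± 0.15 (SE), -1.41 relative to the median gene (adjusted p = 0.00114). It was between -1.76 and -1.15 under the 7 scalings. PSMG3 stood at 6.21, 8.54 and 6.12 FPKM against 11.35, 8.35 and 8.32, with overlapping groups (log2 difference 0.40, adjusted p = 0.0982), and without vector replicate 2 its adjusted p was 0.0383. The ratio of PSMG4 to PSMG3 was 0.799, 0.829 and 0.891 in the vector libraries and 0.202, 0.303 and 0.262 in the overexpression libraries. Those ratios did not overlap, with an exact permutation p of 0.1, the smallest the design allows (n = 3 a group, adjusted 0.5). The PSMG4 exons overlap those of SLC22A23 and TUBB2B on the opposite strand in GENCODE 29. SLC22A23 also fell, from 2.29 ± 0.177 to 1.16 ± 0.0611 FPKM (SD, n = 3; adjusted p = 0.00294), while TUBB2B stood at 4.24 ± 5.23 against 4.81 ± 1.28 (SD, n = 3; log2 difference 0.73, adjusted p = 0.427, and 1.63 without vector replicate 1, adjusted p = 0.00756). Whether reads of these neighbours entered the PSMG4 value was not tested.

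PSMC3IP, no proteasome gene, read 2.08, 2.84 and 2.33 FPKM against 1.47, 1.04 and 1.44. Its overexpression values were all below the vector values (log2 difference -0.68 ± 0.16 (SE), adjusted p = 0.0133).

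The joined rows hold the other subunits. PSMA1;COPB1 stood at 36.35, 37.71 and 32.64 FPKM against 54.07, 49.64 and 46.25 and PSMA6;KIAA0391 at 5.87 ± 0.528 against 9.88 ± 1.6 (SD, n = 3). Both rose on the deposited scale (adjusted p = 0.00502 and 0.00659), though PSMA1;COPB1 had a difference of -0.16 with quantile normalization. C7orf25;PSMA2 read 10.50, 12.97 and 11.28 FPKM against 18.16, 8.99 and 10.25 and did not pass (adjusted p = 0.903). CTRL;PSMB10, with the inducible counterpart of PSMB7, stood at 1.54 ± 1.09 against 1.03 ± 0.419 FPKM (SD, n = 3; adjusted p = 0.636). PSMD9;WDR66 was too low to be tested (0.807 ± 0.286 FPKM and 0.983 ± 0.136, SD, n = 3). A joined value cannot be assigned to either of its genes.

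Of 11 tested proteasome genes with other names, 4 rose and 1 fell, where 37.4% and 11.9% of all tested rows did, and 2 were higher and 4 lower with equal sums, where 11.9% and 34.5% of all were. The same shares of all rows apply to the lists that follow. PAAF1, which binds the base ATPases, rose from 2.19 ± 0.554 to 4.99 ± 0.290 FPKM, and ADRM1, a ubiquitin receptor of the cap, from 7.92 ± 0.373 to 14.3 ± 0.870 (SD, n = 3). POMP, the maturation factor of the core, was the highest of the list at 62.2 ± 5.86 against 89.3 ± 1.34 FPKM (SD, n = 3). Its log2 difference of 0.52 (adjusted p = 0.00229) was -0.23 with quantile normalization (adjusted p = 0.0535), -0.23 and called lower with the level trend removed (adjusted p = 0.0454) and -0.02 with equal sums. UBE3C, a ligase bound to the enzyme, fell from 14.8 ± 0.227 to 11.1 ± 0.3 (SD, n = 3).

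Of 14 tested rows of shuttle and delivery factors, 7 rose and 2 fell, against 1 and 7 with equal sums. RAD23B, a shuttle receptor for ubiquitin chains, read 20.89, 7.05 and 8.48 FPKM against 22.64, 31.53 and 35.94. The RAD23B call (adjusted p = 0.0229) was lost without vector replicate 2 (0.0652) or 3 (0.0689) and without overexpression replicate 2 (0.0658) or 3 (0.0693), and with equal sums (0.111). NPLOC4, a cofactor of the segregase VCP, fell from 13.4 ± 0.951 to 7.87 ± 0.798 FPKM (SD, n = 3).

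Of 6 genes for ubiquitin and its activating enzymes, 3 rose and none fell, against 3 higher and 1 lower with equal sums. RPS27A, a fusion gene that joins ubiquitin to a ribosomal protein, rose from 19 ± 2.23 to 57.8 ± 3.44 FPKM (SD, n = 3). The polyubiquitin gene UBB read 269.10 FPKM in overexpression replicate 1 and 127.53 and 132.89 in replicates 2 and 3, against 126.49, 158.74 and 171.52 with the vector, and its log2 difference of 0.13 was -0.21 without that library.

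Among 8 tested rows of transcriptional control, 3 rose and 1 fell, against 1 and 1 with equal sums. NFE2L1, the activator of subunit genes, stood at 10.05, 16.08 and 13.53 FPKM against 16.08, 20.49 and 19.61 and missed the threshold (log2 difference 0.50, adjusted p = 0.0543). Without vector replicate 2 it was 0.65 (adjusted p = 0.0263), and with equal sums -0.03. MAFF, a small partner of such factors, rose from 0.650 ± 0.0954 to 2.45 ± 0.309 FPKM, and the joined row S1PR5;KEAP1 from 3.29 ± 0.245 to 4.78 ± 0.809 (SD, n = 3). The vector mean of MAFF was below the filter of 1 FPKM, so MAFF was tested only because of its overexpression values. DDI2, the protease that activates NFE2L1 protein, is in the joined row DDI2;RSC1A1, which fell from 7.17 ± 0.291 to 5.43 ± 0.202 FPKM (SD, n = 3; adjusted p = 0.0147, and 0.0549 without overexpression replicate 3). The call of S1PR5;KEAP1 (adjusted p = 0.0336) was lost without vector replicate 1 (0.0597), 2 (0.0585) or 3 (0.0874) and without overexpression replicate 1 (0.0987) or 3 (0.114).

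Of 15 tested rows of interferon response and peptide loading, 9 rose and none fell, against 5 higher and 3 lower with equal sums. HLA-E rose from 15.7 ± 0.297 to 34.4 ± 4.66 FPKM and the loading chaperone CALR from 155 ± 6.07 to 315 ± 8.47 (SD, n = 3). The CALR call was lost with quantile normalization (log2 difference 0.12, adjusted p = 0.116). TAP1, the peptide transporter beside PSMB9, rose from 5.79 ± 0.245 to 7.82 ± 0.416 FPKM (SD, n = 3; adjusted p = 0.0115) on the deposited scale. Its difference was 0.19 with median centring (adjusted p = 0.132), 0.16 with quantile normalization (adjusted p = 0.225) and -0.11 with equal sums (adjusted p = 0.372). IRF1, an activator of the inducible subunits, stood at 1.87 ± 0.950 against 2.40 ± 0.275 (SD, n = 3; adjusted p = 0.298), with a difference of 0.67 without vector replicate 3 (adjusted p = 0.0139).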

How the data were processed

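RNA of 6 MIA PaCa-2 libraries was sequenced, 3 with the vector and 3 with LINC00901 overexpression, grouped by their titles. The deposited values are FPKM per gene and library, as the authors made them. The build was hg19, and HISAT2, cutadapt and FastQC are named without versions, per the submitters' processing notes. The tool behind the FPKM was not given in the sources used here. Rows named by several genes were kept in the fit as joined rows. Of ratios between low values, 19.7% (vector) and 18.7% (overexpression) lay within 0.1 log2 of a power of 2, where an even spread gives 20%, so no whole reads were recovered and depth is unknown.

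Values were transformed to log2(FPKM + 0.5), which understates changes of low genes, and rows with a mean of at least 1 FPKM were fitted with limma 3.58.1 in R 4.3.3 (intensity trend, no replicate block). That mean was taken over all 6 libraries. COL1A1, PSMB9 and MAFF had vector means below 1 FPKM and were tested only through their overexpression values. P-values were adjusted by Benjamini-Hochberg over all tested rows, with a threshold of 0.05. Trends on length and GC content (GENCODE 29, by symbol, median over principal transcripts) and on mean level were removed per library with splines of 4 degrees of freedom. Ratios of 2 genes were compared with exact permutation tests. The fit was tested on simulated data. Python 3.11.15, pandas 2.3.3, numpy 2.4.6 and matplotlib 3.10.9 were used for the other steps.

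The members and gene lists were chosen with earlier results of these data known. All members were named, which goes beyond the rule of naming the extremes of each sub-class, the activators, assembly factors and catalytic subunits, and members that fell or did not pass. From related lists the 2 called rows with the largest differences were named, except some items that are not reported here, and POMP, UBE3C, NPLOC4, UBB, NFE2L1, DDI2;RSC1A1, TAP1 and IRF1 were added after their values were seen, as were the overlapping genes SLC22A23, TUBB2B, NRDE2 and FTSJ3. GENCODE 29 and RefSeq are of another build than the authors', so their coordinates are given only for printed sequences.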

Additional observations from a re-analysis of the deposited data

How the results depend on the processing

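Counts of calls on deposited values were 4773 over all tested rows (3621 higher, 1152 lower) and, among the members, 27 higher and 2 lower. Leaving out each library in turn gave 3580 to 4358 calls (2768 to 3371 higher, 812 to 1004 lower) and 25 to 29 members higher, with 2 lower each time. A mean of at least 5 FPKM left fewer rows to test, with 2818 calls (2396 higher, 422 lower), 0 members lower and 0 assembly factors lower, since PSMG4 and PSMC3IP are below that level. With median centring the counts were 2331 higher and 1866 lower over all rows, 20 and 4 over the members, 8 and 0 in the 20S core, 8 and 1 in the 19S cap, 2 and 1 in the activators and inhibitor and 2 and 1 in the assembly factors. With length and GC content removed the counts were 2059 higher and 1553 lower over all rows, 15 and 4 over the members, 5 and 1 in the 20S core, 9 and 1 in the 19S cap, 1 and 0 in the activators and inhibitor and 0 and 1 in the assembly factors. With quantile normalization the counts were 1865 higher and 2024 lower over all rows, 9 and 8 over the members, 2 and 1 in the 20S core, 5 and 4 in the 19S cap, 2 and 1 in the activators and inhibitor and 0 and 1 in the assembly factors. With the level trend removed the counts were 1909 higher and 2069 lower over all rows, 9 and 8 over the members, 2 and 1 in the 20S core, 5 and 4 in the 19S cap, 2 and 1 in the activators and inhibitor and 0 and 1 in the assembly factors. With length, GC content and level removed the counts were 1613 higher and 1616 lower over all rows, 4 and 7 over the members, 2 and 3 in the 20S core, 2 and 1 in the 19S cap, 0 and 1 in the activators and inhibitor and 0 and 1 in the assembly factors. With equal FPKM sums the counts were 1155 higher and 3345 lower over all rows, 9 and 8 over the members, 2 and 1 in the 20S core, 6 and 4 in the 19S cap, 1 and 1 in the activators and inhibitor and 0 and 1 in the assembly factors. The cause of these differences between scalings was not tested.

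Some log2 differences of members, joined rows and other named genes reversed direction. They were, with median centring, -0.08 for PSMC4, -0.11 for PSMD11, -0.17 for C7orf25;PSMA2, -0.07 for UBB, -0.11 for FTSJ3. Removing length and GC content gave -0.03 for PSMB1, -0.05 for PSMB9, -0.31 for PSMC4, -0.14 for PSMD6, -0.08 for PSMD11, -0.22 for PSMG3, -0.38 for UBB, -0.16 for FTSJ3. Quantile normalization gave -0.14 for PSMB1, -0.10 for PSMB4, -0.46 for PSMC4, -0.31 for PSMD1, -0.31 for PSMD5, -0.01 for PSMD6, -0.32 for PSMD11, -0.03 for PSMD14, -0.02 for PSMG1, -0.32 for C7orf25;PSMA2, -0.16 for PSMA1;COPB1, -0.23 for POMP, -0.71 for UBB, -0.12 for FTSJ3. Removing the level trend gave -0.15 for PSMB1, -0.09 for PSMB4, -0.47 for PSMC4, -0.34 for PSMD1, -0.33 for PSMD5, -0.02 for PSMD6, -0.34 for PSMD11, -0.05 for PSMD14, -0.04 for PSMG1, -0.34 for C7orf25;PSMA2, -0.16 for PSMA1;COPB1, -0.23 for POMP, -0.75 for UBB, -0.13 for FTSJ3. Removing length, GC content and level gave -0.21 for PSMA7, -0.31 for PSMB1, -0.07 for PSMB3, -0.24 for PSMB4, -0.18 for PSMB5, -0.04 for PSMB7, -0.67 for PSMC4, -0.21 for PSMD1, -0.11 for PSMD3, -0.15 for PSMD5, -0.13 for PSMD6, -0.30 for PSMD11, -0.02 for PSMD13, -0.07 for PSMD14, -0.05 for PSMG1, -0.05 for PSMG2, -0.29 for PSMG3, -0.84 for UBB, -0.01 for NFE2L1, -0.01 for TAP1, -0.19 for FTSJ3. Equal FPKM sums gave -0.09 for PSMA5, -0.07 for PSMB1, -0.41 for PSMC4, -0.12 for PSMC6, -0.31 for PSMD1, -0.31 for PSMD5, -0.29 for PSMD6, -0.43 for PSMD11, -0.04 for PSMD13, -0.13 for PSMD14, -0.10 for PSMG1, -0.03 for PSMG2, -0.11 for PSMG3, -0.48 for C7orf25;PSMA2, -0.06 for PSMA1;COPB1, -0.02 for S1PR5;KEAP1, -0.02 for POMP, -0.41 for UBB, -0.03 for NFE2L1, -0.11 for TAP1, -0.08 for IRF1, -0.40 for FTSJ3. Leaving out 1 library gave for PSMA3 0.06 without vector replicate 1 and 0.03 without overexpression replicate 2 or 3, for PSMD11 -0.06 without vector replicate 3 to 0.20 without vector replicate 2, for C7orf25;PSMA2 -0.02 and -0.25 without vector or overexpression replicate 1 and 0.23 without overexpression replicate 2, for CTRL;PSMB10 -0.79 to 0.10 without vector replicate 1 or 2, and for UBB -0.21 to 0.32 without overexpression replicate 1 or 2. With the replicate number as a block 4227 rows were called (3262 higher, 965 lower), with 27 members higher and 2 lower. Of the named genes, PSMD10, S1PR5;KEAP1 and DDI2;RSC1A1 no longer passed under the block (adjusted p = 0.0591, 0.0671 and 0.0508), and PSME3 and NFE2L1 did (0.0358 and 0.0188). Same-numbered libraries did not deviate together (correlations -0.037, -0.00574 and -0.00503). The labels do not say whether libraries with the same number were prepared as pairs. The pseudocounts, no filter, the variance settings and leaving out joined rows reversed no direction among these results. Unknown depth limits the precision of low rows such as PSMB8, PSMB9 and PSMG4.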
